A study of Mus musculus with 2 samples.

Results

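MHC class I molecules carry short peptides from proteins made inside a cell to its surface, where CD8 T cells and natural killer cells read them. The 10 genes described here encode that route: the light chain B2m, the heavy chains H2-D1, H2-K1 and H2-T23, the peptide transporter subunits Tap1 and Tap2, the loading factor Tapbp, the immunoproteasome subunits Psmb8 and Psmb9, and the class I transactivator Nlrc5. They are 10 of the 31053 genes in the deposited feature lists, and each symbol matched 1 row in both libraries. The genes were chosen by earlier results of these same data, in which several of them were higher on the injured side, so the differences below are a description and carry no test. Cells of the oligodendrocyte lineage hold little class I in healthy brain, whereas brain endothelium holds much of it; interferons raise the whole route in most cell types, partly through Irf1 and Nlrc5. A peptide is cut by the proteasome, carried into the endoplasmic reticulum by the Tap1 and Tap2 transporter, loaded with the help of Tapbp, and held by a heavy chain paired with B2m.

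Male C57/BL6 mice had a 60-minute middle cerebral artery occlusion (MCAO) at postnatal day 10 and 2 weeks of reperfusion. The ipsilateral library came from the lateral striatum of the occluded side and the contralateral library from the opposite side, and all animals carried the occlusion, so the contralateral side is not the brain of an uninjured mouse. Each library pools tissue from 3 animals, and dissociated cells were sorted by flow cytometry for A2B5, O4 or both, antigens of early and later stages of the lineage. Values rest on counts of unique molecular identifiers (UMIs), which tag captured RNA molecules one by one.

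The ipsilateral library held 2775 barcodes and 54788795 UMIs, and the contralateral library 2066 barcodes and 36063045 UMIs. Barcodes with at least 500 genes and at most 15% mitochondrial UMIs numbered 2505 ipsilateral and 1913 contralateral, with medians of 19851 and 14595 UMIs, and the libraries shared 0 barcodes. Clusters named from markers gave 374 ipsilateral and 300 contralateral cells like oligodendrocyte precursors (OPC-like), 240 and 113 like committed precursors, 950 and 524 like mature oligodendrocytes, 548 and 581 like neuroblasts, and 129 and 184 like endothelium. The labels call the cells oligodendrocytes, but classes outside that lineage were also present. Neuroblast-like cells made up 21.9% of ipsilateral and 30.4% of contralateral kept cells, and endothelial-like cells 5.15% and 9.62%. Smaller classes were astrocyte-like (29 and 30 cells) and mural-like (15 and 14 cells). Cluster 2 (120 and 96 cells) stayed unnamed, with microglia markers scoring highest and ependymal markers second. Marker genes fitted the names: Mog, a myelin glycoprotein, was at 3668 and 3663 UMIs per 1000000 UMIs of the class (CPM) in mature-like cells, and Cldn5, a junction protein of endothelium, at 4869 and 5207 CPM in endothelial-like cells. OPC-like cells lay mostly in cluster 9 (204 of 374) in the ipsilateral library and in cluster 10 (222 of 300) in the contralateral library, and committed-like cells mostly in cluster 3 (137 of 240) and cluster 7 (61 of 113). With 1 library per side no test across animals is possible, and every interval below is a 95% interval for counting error only.

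Summed over the 10 genes, mature-like cells showed the widest gap between the libraries. The sum was 304 CPM in ipsilateral and 80.5 CPM in contralateral mature-like cells, 3.78-fold higher (interval 3.55 to 4.02). Committed-like cells stood at 196 and 117 CPM (1.68-fold, 1.48 to 1.91), neuroblast-like cells at 80.2 and 57.9 CPM (1.39-fold, 1.23 to 1.56), endothelial-like cells at 2218 and 1826 CPM (1.22-fold, 1.15 to 1.28), and OPC-like cells at 431 and 372 CPM (1.16-fold, 1.08 to 1.25). In the contralateral library mature-like cells had less of the sum than committed-like cells, while in the ipsilateral library they had more. Endothelial-like cells held the highest sum in both libraries.

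B2m, the light chain that every class I molecule of this kind needs, was at 98.2 CPM in ipsilateral and 28.0 CPM in contralateral mature-like cells, 3.51-fold higher (3.16 to 3.90). It stood at 129.6 and 104.5 CPM in OPC-like cells, 55.8 and 35.9 CPM in committed-like cells, 18.0 and 13.3 CPM in neuroblast-like cells, and 518 and 489 CPM in endothelial-like cells. The ipsilateral order was thus endothelial-like, OPC-like, mature-like, committed-like and neuroblast-like, with no overlap of neighbouring intervals. On the contralateral side committed-like cells (29.0 to 43.9 CPM) and mature-like cells (25.4 to 30.8 CPM) overlapped. B2m lies on chromosome 2 (122147686 to 122153083, forward strand, GRCm38), is protein coding and overlaps Patl2 on the opposite strand. Whether the authors' counting used strand is not stated in the material used.

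H2-D1, a classical heavy chain, had the widest difference of any member with at least 20 UMIs that was higher: 157 CPM in ipsilateral and 29.9 CPM in contralateral mature-like cells, 5.25-fold (4.76 to 5.80). OPC-like cells had 161 and 140 CPM, committed-like cells 84.5 and 43.5 CPM (1.94-fold, 1.58 to 2.40), neuroblast-like cells 34.2 and 24 CPM (1.43-fold, 1.19 to 1.72), and endothelial-like cells 769 and 576 CPM (1.34-fold, 1.22 to 1.46). Ipsilateral mature-like cells (152 to 162 CPM) reached the level of ipsilateral OPC-like cells (149.9 to 172 CPM). Contralateral mature-like cells (27.2 to 32.8 CPM) overlapped only neuroblast-like cells (20.8 to 27.5 CPM) among the larger classes of that library. The 30 contralateral astrocyte-like cells, with 10 H2-D1 UMIs (15.3 to 58.7 CPM), overlapped them as well.

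H2-K1, the second classical heavy chain of this strain, stood at 33.1 and 9.40 CPM in mature-like cells, 3.52-fold higher on the ipsilateral side (2.94 to 4.24). In OPC-like cells it was 60.1 and 56.7 CPM, in committed-like cells 27.0 and 22.1 CPM, in neuroblast-like cells 6.70 and 5.48 CPM, each with an interval of the ratio that includes 1. Endothelial-like cells had 359 and 265.5 CPM (1.35-fold, 1.18 to 1.55). H2-K1 thus differed most in the mature-like class and by at most 1.35-fold in the other 4.

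H2-T23 encodes Qa-1, a heavy chain with little variation that presents leader peptides of other class I chains to natural killer cell receptors. It was at 8.30 and 5.48 CPM in mature-like cells (1.52-fold, 1.17 to 1.98), 16.7 and 11.8 CPM in OPC-like cells, 3.83 and 1.53 CPM in committed-like cells, 7.43 and 5.59 CPM in neuroblast-like cells and 237 and 230 CPM in endothelial-like cells. The mature-like difference turned round, to a log2 ratio of -0.16, among cells with no UMI of a microglia or macrophage marker. Of the 3 heavy chains H2-T23 showed the smallest ratio in mature-like cells. Of its 81 contralateral UMIs there, 23 lay in 1 cell of 27763 UMIs and 10 in 1 cell of 12051 UMIs. The contralateral value, and with it the small ratio, thus rested partly on few cells. H2-D1 (35262730 to 35267499, forward), H2-K1 (33996017 to 34000347, reverse) and H2-T23 (36029773 to 36032855, reverse, overlapping the antisense gene A930015D03Rik) lie on chromosome 17 of GRCm38 in the MHC. The class I heavy chains resemble each other: of the 31-base words in the last 500 bases of their transcripts, 34.5% for H2-D1, 26.4% for H2-K1 and 31.2% for H2-T23 also occur in transcripts of another gene, mostly other class I genes, against 0.0% for B2m. How the authors' counting split such reads is not stated either, so the heavy chain values are less certain than that of B2m.

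The sequences before the start sites of B2m and H2-K1 are shown because the light chain and a heavy chain were higher together in mature-like cells and come from different chromosomes. They are RefSeq promoter windows of GRCm38.p6, B2m from chr2:122147437-122147685 (forward strand) and H2-K1 from chr17:34000348-34000597 (reverse strand), ended where the first annotated exon begins, with 5 searched motifs in capitals.
B2m: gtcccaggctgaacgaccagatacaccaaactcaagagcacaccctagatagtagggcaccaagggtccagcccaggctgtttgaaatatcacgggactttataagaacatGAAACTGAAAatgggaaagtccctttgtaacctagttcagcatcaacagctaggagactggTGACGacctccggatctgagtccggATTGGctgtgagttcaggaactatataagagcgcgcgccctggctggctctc
H2-K1: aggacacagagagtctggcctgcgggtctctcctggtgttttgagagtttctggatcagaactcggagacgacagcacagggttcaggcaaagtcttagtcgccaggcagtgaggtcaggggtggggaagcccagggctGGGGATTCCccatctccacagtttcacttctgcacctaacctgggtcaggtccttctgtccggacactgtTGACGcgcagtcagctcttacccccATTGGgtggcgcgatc
The motifs were an interferon regulatory factor pair (GAAA repeated with 2 bases between), a STAT site (TTCNNNGAA), a CCAAT box (CCAAT), the core of the X2 box bound by Creb and Atf factors (TGACG) and a Rel site (GGGNNTTCC), on both strands and without regard to overlap, within 250 bases before the start. Both windows hold a TGACG and a CCAAT. B2m also holds the interferon regulatory factor pair at 139 to 130 bases before the start, and H2-K1 the Rel site at 111 to 103 bases before it. Among 8 members with a window, 5 held TGACG (17.8% of all 32851 windows), 7 CCAAT (33.9%), 2 the interferon regulatory factor pair (B2m and H2-T23, 2.98%), 2 the Rel site (H2-D1 and H2-K1, 4.98%) and 1 the STAT site (Psmb8, 7.02%). The Tap1 and Psmb9 windows overlap on opposite strands, and their TGACG and CCAAT are the same bases, counted for each gene. The windows of H2-D1, Tap1, Tapbp, Psmb8 and Psmb9 begin inside an annotated exon. The H2-D1 and H2-K1 windows share a run of 47 identical bases that includes the Rel site, while the longest run that H2-D1 shares with H2-T23 is 12 bases. A match is a description of these letters and not a measured binding site.

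The transporter genes did not follow the chains in mature-like cells. Tap1, the subunit that binds ATP and peptide with Tap2, gave 3 UMIs in ipsilateral and 14 UMIs in contralateral mature-like cells (0.110 and 0.946 CPM), a ratio of 0.116 (0.0214 to 0.415). Tap2, its partner, gave 7 and 12 UMIs there (0.256 and 0.811 CPM), a ratio of 0.316 (0.105 to 0.869). Of the 14 contralateral Tap1 UMIs, 10 lay in 1 cell, and the other 4 in 3 cells. The same cell held 4 of the 12 contralateral Tap2 UMIs, and a second cell held 2 more, so the Tap2 ratio is not independent of that of Tap1.

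Outside the mature-like class the transporter counts were highest in OPC-like and endothelial-like cells and low in neuroblast-like cells. Tap1 stood at 9.38 and 6.51 CPM in OPC-like cells, and at 6.26 and 1.53 CPM in committed-like cells, where 36 ipsilateral UMIs faced 4 contralateral UMIs (4.10-fold, 1.47 to 15.9). Over the processing alternatives the log2 ratio of Tap1 in committed-like cells ran from 0.287 to 3.42. In endothelial-like cells Tap1 was 32.2 and 21.7 CPM, and in neuroblast-like cells 5 UMIs and 1 UMI were found. Tap2 was 23.7 and 29.5 CPM in OPC-like cells (0.806-fold, 0.612 to 1.06), 4.35 and 2.67 CPM in committed-like cells, 1.34 and 1.40 CPM in neuroblast-like cells and 56.4 and 55.5 CPM in endothelial-like cells. The interval of the Tap2 ratio included 1 in these 4 classes, and that of Tap1 in all of them but the committed-like class.

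Tapbp, or tapasin, which bridges the transporter and the empty heavy chain, was also higher in ipsilateral mature-like cells, by less than the B2m, H2-D1 and H2-K1 ratios: 6.73 and 3.38 CPM, 1.99-fold higher (1.45 to 2.78). It was 15.9 and 17.1 CPM in OPC-like cells, 10.8 and 8.78 CPM in committed-like cells, 9.75 and 7.57 CPM in neuroblast-like cells and 107 and 94.1 CPM in endothelial-like cells, all with intervals of the ratio that include 1. Tap1 (34187553 to 34197225), Psmb8 (34197721 to 34201454), Tap2 (34203527 to 34216321) and Tapbp (33915899 to 33929292) lie on the forward strand of chromosome 17, and Psmb9 (34181987 to 34187764) on the reverse strand. The annotated Psmb9 and Tap1 genes overlap head to head, and 495 bases separate Tap1 from Psmb8.

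Psmb8 replaces the standard subunit Psmb5 in the immunoproteasome, which favours peptides that fit class I, and Psmb9 replaces Psmb6. Psmb8 was at 12.4 CPM (65 UMIs) in ipsilateral and 4.65 CPM (15 UMIs) in contralateral OPC-like cells, 2.68-fold higher (1.51 to 5.05). Of these 65 ipsilateral UMIs, 13 lay in 1 cell. Over the processing alternatives the log2 ratio of Psmb8 in OPC-like cells (1.42) ran from 0.396 to 1.95. In mature-like cells the direction was the other way, with 6 and 33 UMIs (0.219 and 2.23 CPM). Endothelial-like cells had 90.2 and 61.5 CPM (1.47-fold, 1.11 to 1.94), committed-like cells 14 and 2 UMIs, and neuroblast-like cells 8 and 3 UMIs. In committed-like and neuroblast-like cells the interval of the Psmb8 ratio included 1.

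The contralateral Psmb8 value in mature-like cells rested on few cells. A cell of 12051 UMIs in cluster 11 gave 23 of the 33 Psmb8 UMIs, 10 of the 14 Tap1 UMIs and 3 of the 4 Psmb9 UMIs, and it also held 92 of the 107 UMIs of Ifit3, an interferon-stimulated gene. The other 10 Psmb8 UMIs lay in 3 cells, 8 of them in 1 cell of 27763 UMIs in cluster 0. Leaving out the cell with the most member UMIs from each library brought the log2 ratio of Psmb8 to -1.62, against -3.35 with it. The cell of 27763 UMIs stayed in for that value, so the lower ratio still rested on few cells. The log2 ratio of Psmb8 in mature-like cells ran from -4.385 to -0.137 over the processing alternatives. Thinned to 17940 UMIs, 5 of 853 ipsilateral and 1 of 473 contralateral mature-like cells held a Psmb8 UMI. Cells of lower depth, among them the cell of 12051 UMIs, are left out of these counts. Psmb9 was at 48.3 and 32.6 CPM in endothelial-like cells (1.48-fold, 1.01 to 2.18), gave 13 and 2 UMIs in OPC-like cells, 5 and 0 UMIs in committed-like cells and 7 UMIs and 1 UMI in neuroblast-like cells, and 3 and 4 UMIs in mature-like cells.

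Nlrc5, the transactivator that acts on class I promoters, was close to the limit of detection everywhere: 19 UMIs over all kept ipsilateral cells and 3 over all kept contralateral cells (0.350 and 0.0843 CPM, 4.15-fold, 1.22 to 21.9). Mature-like cells gave 8 and 2 of these UMIs, OPC-like cells 1 and 0, endothelial-like cells 2 and 1, neuroblast-like cells 2 and 0, and committed-like cells 0 and 0. The counts are too low for a comparison within a class. Nlrc5 lies on chromosome 8 (94434356 to 94527272, forward strand, GRCm38).

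**Figure D1:**
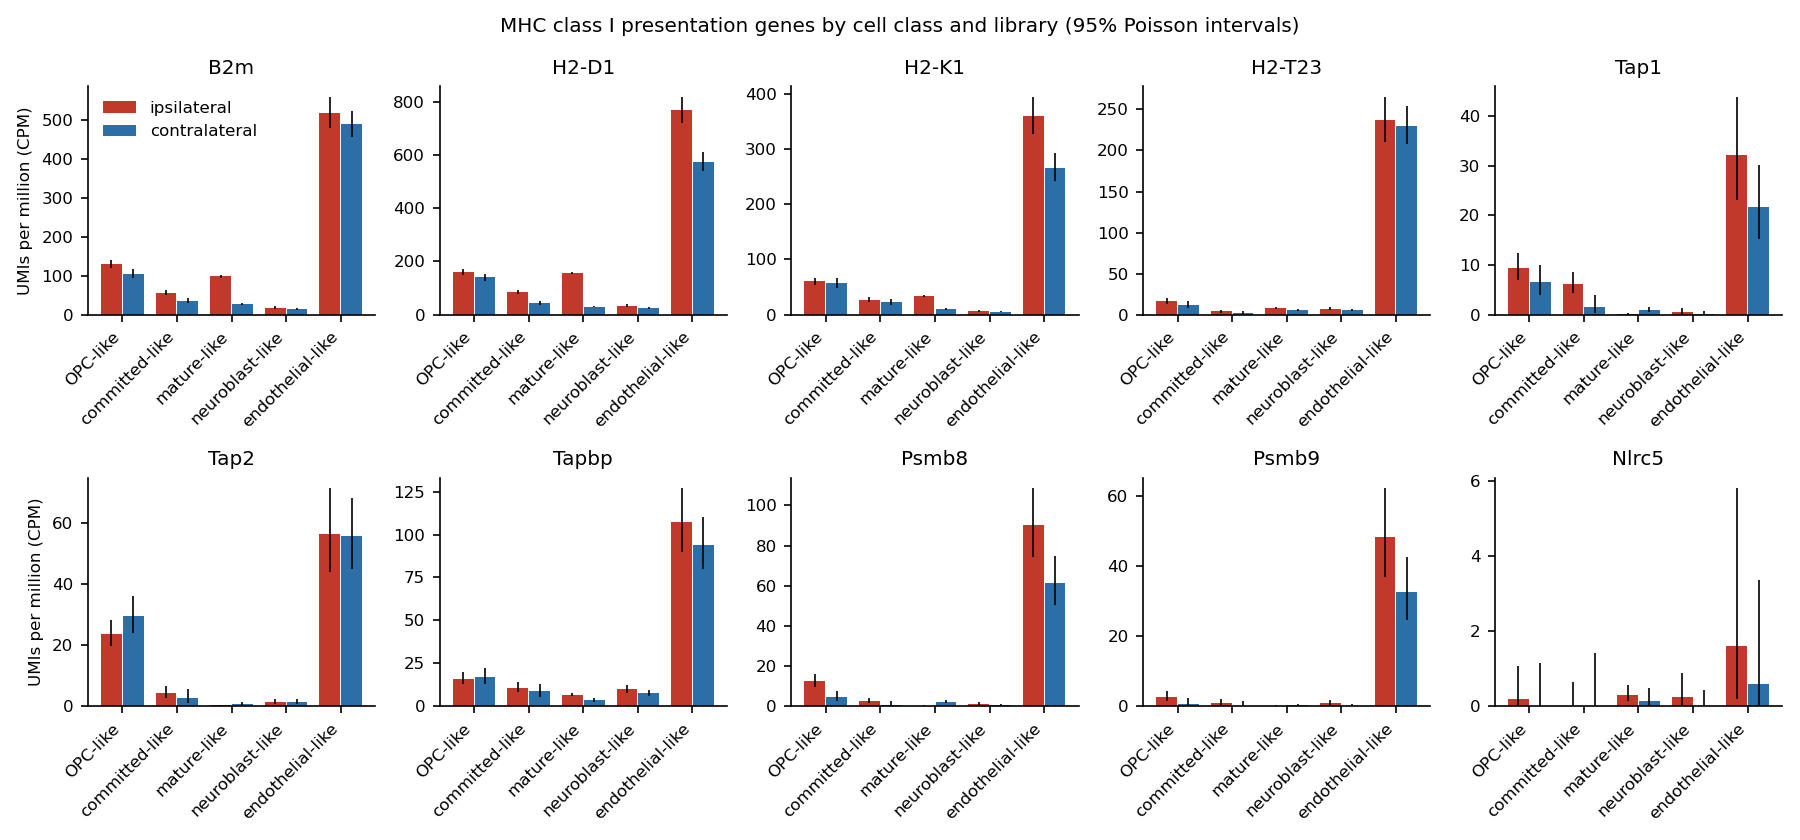
Level of each of the 10 genes in CPM (linear axes from 0, a separate axis for each gene) in 5 cell classes, ipsilateral (red) left of contralateral (blue), with 95% Poisson intervals. Endothelial-like cells are highest for the 9 genes other than Nlrc5, whose counts are too low to rank, such as B2m at 518 and 489 CPM, and in mature-like cells the red bars of B2m, H2-D1 and H2-K1 stand well above the blue ones.

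**Figure D2:**
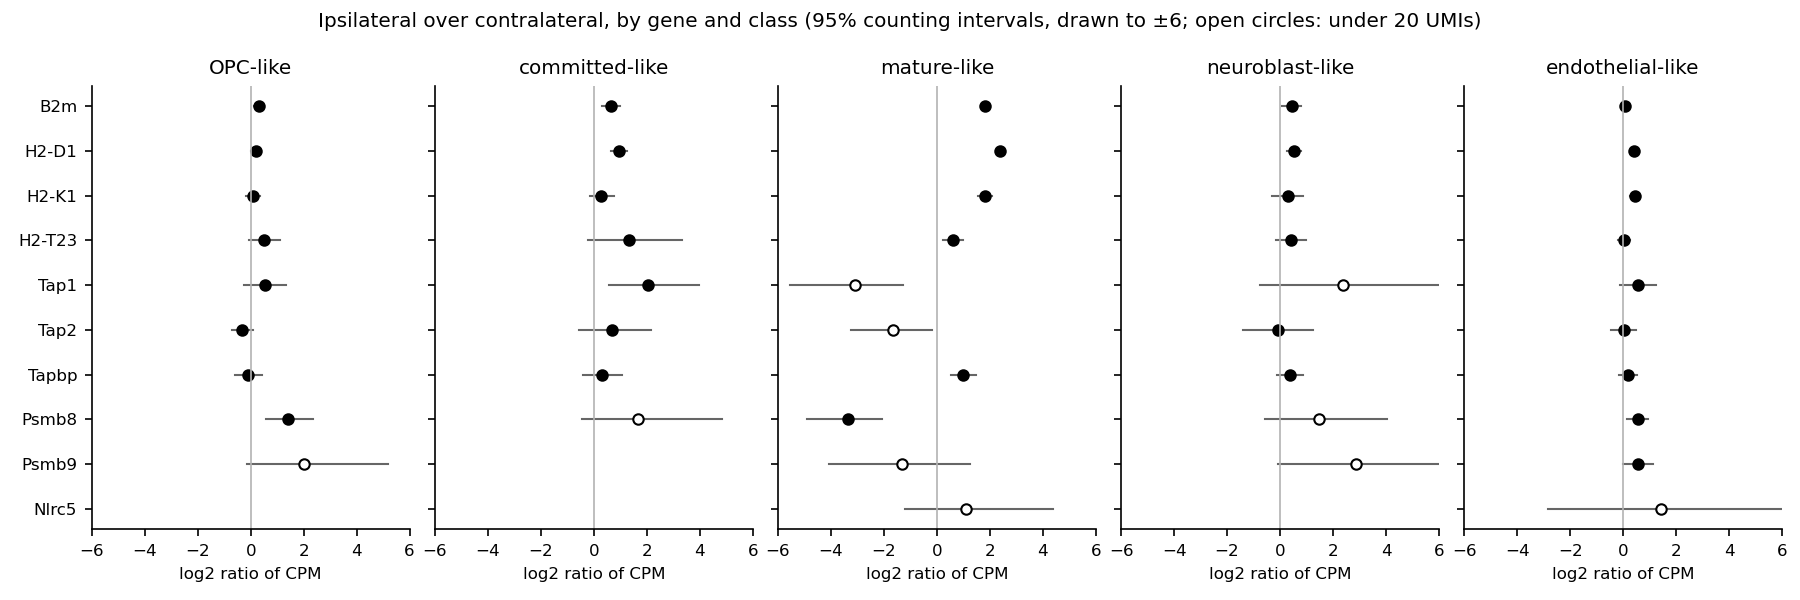
Log2 ratio of CPM, ipsilateral over contralateral, of each gene in each class with its 95% counting interval (drawn to 6 on either side). Open circles mark genes with under 20 summed UMIs, and genes with no UMI in a library are not drawn; in mature-like cells H2-D1, B2m and H2-K1 lie right of 0, and Tap1 and Psmb8 left of it.

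Counted against a 1.5-fold difference in genes with at least 20 summed UMIs, 6 members could be read in mature-like cells: 5 were higher and 1, Psmb8, lower on the ipsilateral side. Over all 12149 genes read in that class, 5.76% were higher and 2.83% lower by this rule. In committed-like cells 5 of 7 members read were higher and 0 lower, beside 6.67% and 5.61% of all genes. These 5 were B2m, H2-D1, H2-T23, Tap1 and Tap2, of which H2-T23 and Tap2 have intervals of the ratio that include 1. In OPC-like cells 1 of 8, Psmb8, was higher and 0 lower, beside 4.76% and 5.98%. None of 6 members read in neuroblast-like cells and none of 9 in endothelial-like cells passed 1.5-fold either way, beside 5.1% higher and 3.21% lower of all genes in the neuroblast-like class and 9.88% and 5.31% in the endothelial-like class. The median log2 ratio of the members read was 1.40 in mature-like, 0.70 in committed-like, 0.42 in endothelial-like, 0.39 in neuroblast-like and 0.25 in OPC-like cells, where all genes had medians of 0.009, 0.012, 0.029, 0.034 and -0.065. A member that reached 20 UMIs through its higher library alone was bound to differ, and since the members were chosen with such differences in view these counts describe them and support nothing.

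Within the mature-like class the sum of the 10 genes was higher in each of the 5 clusters that held cells of both libraries. Cluster 1, led by the immediate early genes Arc and Egr2, had 200.1 and 50.8 CPM (3.94-fold), cluster 11, led by the interferon-inducible gene Ifi27l2a, 397 and 105 CPM (3.78-fold), and cluster 0, led by Hapln2, a link protein of the node of Ranvier, 381 and 111 CPM (3.44-fold). Cluster 6, led by Ptgds, a prostaglandin synthase, had 188 and 67.1 CPM (2.80-fold), and cluster 17, led by the protease Klk6, 238.5 and 87.1 CPM (2.74-fold). A sixth cluster, led by C4b and Serpina3n, held 82 ipsilateral and 0 contralateral cells and stood at 728 CPM. Without it the log2 ratio of the sum in the class was 1.77, against 1.92 with it.

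C4b, a complement component, and Serpina3n, a protease inhibitor, are genes of the response of oligodendrocytes to disease, picked here with earlier results known. Mature-like cells thinned to 17940 UMIs each were divided by whether they held a UMI of either gene. The 220 ipsilateral cells with such a UMI had 570.3 CPM of the 10 genes and the 633 without had 222.5 CPM, while the 41 contralateral cells with one had 85.7 CPM and the 432 without had 76.9 CPM. Thinning left out 97 ipsilateral and 51 contralateral cells of lower depth, among them the contralateral cell of 12051 UMIs. Without thinning, contralateral cells with such a UMI had 122.1 CPM and those without 75.6 CPM, and ipsilateral cells had 514 and 204.2 CPM. Ipsilateral cells with neither gene were thus above contralateral cells of either kind with and without thinning. H2-D1 alone was at 315 and 112 CPM in the ipsilateral cells with and without, and at 32.6 and 29.0 CPM in the contralateral cells with and without.

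**Figure D3:**
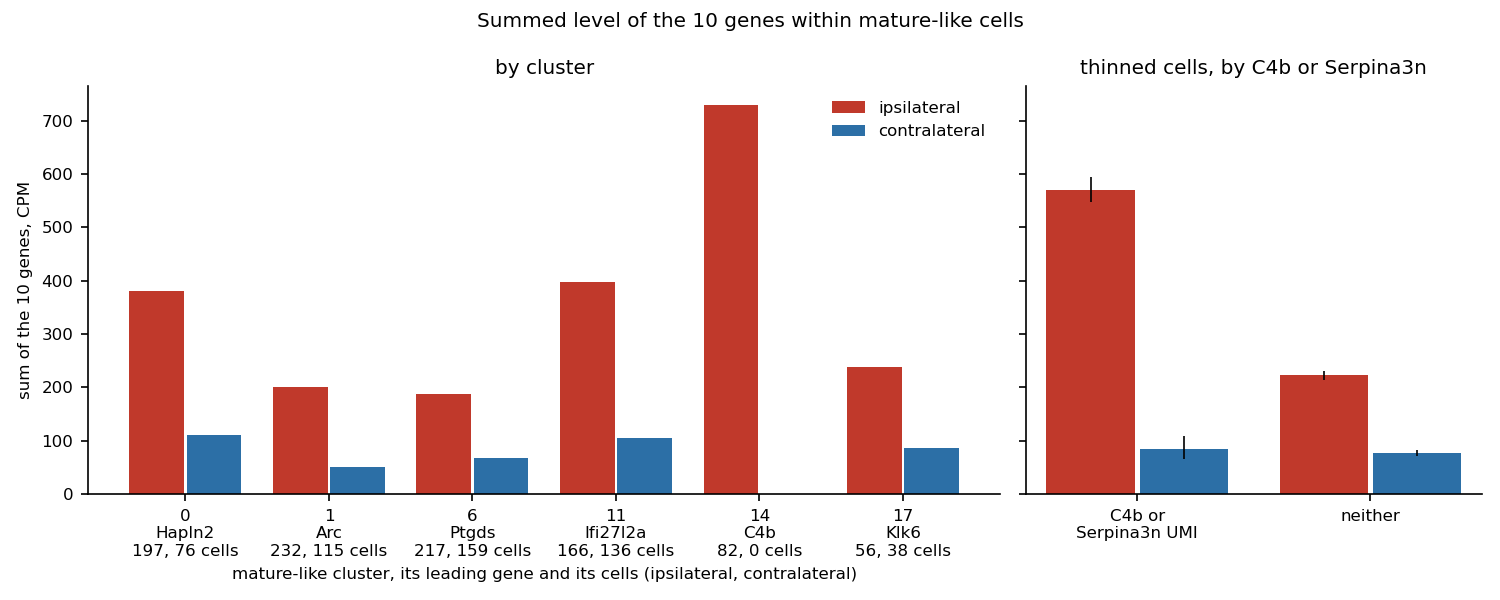
Sum of the 10 genes in CPM within mature-like cells, ipsilateral (red) left of contralateral (blue): on the left by cluster, with its number, leading gene and cells, and on the right in cells thinned to 17940 UMIs, with 95% Poisson intervals, by whether they held a C4b or Serpina3n UMI. The ipsilateral bar is the higher one in every pair, and cluster 14 has no contralateral cell.

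The UMIs of the chains were spread unevenly over mature-like cells. Of the 950 ipsilateral mature-like cells, 45 (4.74%, 3.48 to 6.29) held 20 or more H2-D1 UMIs and together 50.1% of the H2-D1 UMIs of the class, while 388 (40.8%) held 0. Of the 524 contralateral cells, 4 (0.763%, 0.208 to 1.94) held 20 or more and 380 (72.5%) held 0. The highest cell had 162 H2-D1 UMIs on the ipsilateral and 35 on the contralateral side. In endothelial-like cells the spread was narrower: the 10% of cells with the most held 26.4% and 27.7% of the H2-D1 UMIs, against 67.1% and 78.5% in mature-like cells.

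Cells rich in H2-D1 were rich in the other chains while transporter and immunoproteasome genes gave few UMIs in each ipsilateral bin. In ipsilateral mature-like cells with 0, 1 to 4, 5 to 19 and 20 or more H2-D1 UMIs, B2m was at 28.0, 57.6, 190.2 and 655 CPM and H2-K1 at 9.44, 18.8, 46.7 and 283 CPM. H2-T23 ran in the same order at 1.34, 4.48, 14.8 and 70.8 CPM, and Tapbp at 4.87, 6.21, 10.8 and 11.7 CPM. Median depth differed little between these bins, from 26980 to 29610 UMIs per cell, and the bins hold cells of all 6 clusters. Tap1, Tap2, Psmb8 and Psmb9 together gave 1, 11, 4 and 3 UMIs in the 4 ipsilateral bins. Of their 63 contralateral UMIs, 52 lay in the 17 cells with 5 to 19 H2-D1 UMIs, which include the cell of 12051 UMIs described above. C4b ran from 24.2 CPM in cells with 0 H2-D1 UMIs to 203 CPM in those with 20 or more, while the 9 endothelial markers together were at 24.2, 29.5, 28.2 and 27.0 CPM over the 4 bins. The 12 microglia markers ran upward with H2-D1, at 18.6, 24.2, 26.9 and 28.5 CPM, and their part in this order was not tested.

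**Figure D4:**
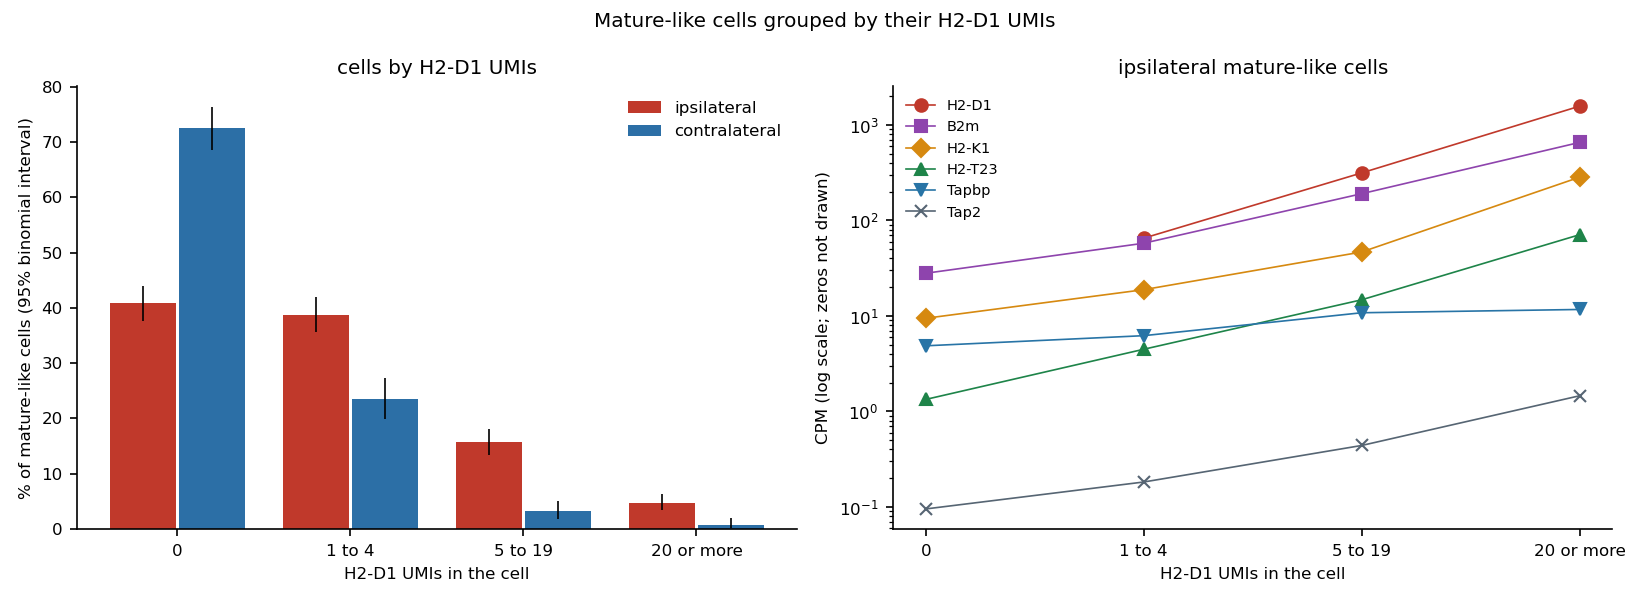
Left, percentage of mature-like cells by the number of H2-D1 UMIs in the cell, ipsilateral (red) left of contralateral (blue), with 95% binomial intervals; right, CPM (log axis) of 6 genes in the ipsilateral cells of each bin. The 45 ipsilateral cells with 20 or more H2-D1 UMIs are the highest bin for B2m (655 CPM), H2-K1 and H2-T23, and the contralateral percentage of that bin is 0.763.

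As a share of the UMIs of 7 genes (B2m, H2-D1 and H2-K1 with Tap1, Tap2, Psmb8 and Psmb9), a grouping made after the values were seen, the Tap and Psmb genes gave 0.241% (19 UMIs, 0.145 to 0.376) in ipsilateral and 5.96% (63 UMIs, 4.61 to 7.56) in contralateral mature-like cells. Without the richest cell of each library these shares were 0.236% and 2.32% (1.48 to 3.46). In OPC-like cells the share was 12.1% and 12.0%, in endothelial-like cells 12.1% and 11.4%, in committed-like cells 7.68% and 4.66%, and in neuroblast-like cells 6.02% and 4.43%. The 4 genes thus made up a like part of the 7 in OPC-like and endothelial-like cells of both libraries, and a far smaller part in ipsilateral mature-like cells.

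At the fixed depth of 17940 UMIs, H2-D1 was found in 50.8% (47.4 to 54.2) of 853 ipsilateral and 21.1% (17.6 to 25.1) of 473 contralateral mature-like cells. B2m was found in 54.4% and 26.9%, and H2-K1 in 24.6% and 12.3%. Without thinning the H2-D1 shares were 59.2% and 27.5%. Neuroblast-like cells at the same depth, 176 and 192 in number, held an H2-D1 UMI in 47.2% and 28.1% and a B2m UMI in 31.3% and 19.3%. The H2-D1 intervals of mature-like and neuroblast-like cells overlapped in the ipsilateral library (47.4 to 54.2 and 39.6 to 54.8) and in the contralateral library (17.6 to 25.1 and 21.9 to 35.1), so no order of the classes is read from these shares. Free RNA in the droplets was not measured. The number of UMIs per cell differed more than these shares: at that depth no neuroblast-like cell held over 4 H2-D1 UMIs, whereas mature-like cells reached 102 and 21.

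Markers of other cells were low in mature-like cells. The 12 microglia markers summed to 22.7 and 18.6 CPM, with 6 of the 12 higher on the ipsilateral side. Cx3cr1 and Tmem119 were at 0 in the ipsilateral cells, and Cx3cr1, Csf1r and Aif1 at 0 in the contralateral cells. In the 530 and 327 mature-like cells with no UMI of a microglia or macrophage marker, the log2 ratio of the sum of the 10 genes was 1.74. The 9 lymphocyte markers gave 3 and 0 UMIs, and the 9 endothelial markers 27.1 and 35.0 CPM. In neuroblast-like cells the 12 mature oligodendrocyte markers were at 2041 and 1163 CPM, all 12 higher on the ipsilateral side, while the endothelial markers there were at 21.8 and 50.3 CPM. The mature markers were also higher in ipsilateral endothelial-like cells (2887 and 1717 CPM, 11 of 12), OPC-like cells (992 and 722 CPM, 11 of 12) and astrocyte-like cells (4790 and 696 CPM, 12 of 12), and lower in committed-like cells (6622 and 8472 CPM, 1 of 12 higher). The part of these markers in the member differences of those classes was not tested.

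In OPC-like cells the sum of the 10 genes was 382 and 254 CPM (1.503-fold) in cluster 9 and 512 and 422 CPM (1.21-fold) in cluster 10. In committed-like cells it was 234.5 and 183.5 CPM (1.28-fold) in cluster 3, led by Bmp4 and Gpr17, and 159 and 83.8 CPM (1.90-fold) in cluster 7, led by Frmd4a. The unnamed cluster 15, which carried mature markers with committed-like leading genes, had 301 and 131 CPM (2.29-fold). All 5 of these clusters were higher on the ipsilateral side, by ratios below those of the 5 mature-like clusters with cells of both libraries. The 8 neuroblast-like clusters were higher too, 7 of them by 1.08-fold to 1.65-fold. The other one, cluster 21, had the highest ratio of any cluster, at 177 and 12.3 CPM (14.4-fold, log2 interval 1.27 to 9.19), from 35 UMIs and 1 UMI in 28 and 11 cells with a median depth of 1607 UMIs. Of the 35 ipsilateral UMIs in cluster 21, 14 lay in 1 cell of 32608 UMIs and 12 in 1 cell of 59649 UMIs. These cells also held 149 and 419 UMIs of Mbp, one of the mature oligodendrocyte markers, so the ratio of that cluster rested on few cells. Among the neuroblast-like clusters, the interval of the ratio included 1 in clusters 16, 18, 19 and 22. In the 29 and 30 astrocyte-like cells the sum was 376 and 313 CPM (1.20-fold, 0.916 to 1.58).

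Most other genes of peptide cutting and loading differed little in mature-like cells. None of 14 genes of the standard proteasome core passed 1.5-fold in any of the 5 classes. Of all genes read, 4.76% to 9.88% were higher and 2.83% to 5.98% lower, depending on the class, so 0 of 14 is not read as a result. In mature-like cells Psmb5 was at 168 and 165 CPM and Psmb6 at 220.2 and 217 CPM. The 11 other peptide loading genes gave 0 higher and 0 lower in mature-like cells, beside 5.76% and 2.83% of all genes. Calr, the chaperone calreticulin, was at 404 CPM there in each library. Of 4 other immunoproteasome genes, Psme1, a subunit of the PA28 cap, was higher in mature-like cells (13.8 and 8.25 CPM, 1.67-fold) and Psmb10, the immunoproteasome counterpart of Psmb7, lower (8.89 and 13.5 CPM, 0.657-fold). Among other class I molecules H2-T22 was at 9.25 and 6.02 CPM (1.54-fold) and H2-Q4 at 4.43 and 3.11 CPM (1.42-fold) in mature-like cells, and both lay under 1.5-fold in OPC-like cells.

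Genes of class I transcription and interferon signalling formed a list of 22. In mature-like cells 3 of them were higher and 0 lower, beside 5.76% and 2.83% of all genes. Irf1, a transcription factor induced by interferon gamma, had 135 ipsilateral and 5 contralateral UMIs (4.94 and 0.338 CPM, log2 ratio 3.87, 2.61 to 5.51). Irf9, a part of the interferon response, was at 6.58 and 3.25 CPM (2.03-fold). Rfx5, Rfxap, Rfxank, Creb1, Atf1, Nfya, Nfyb and Nfyc, whose products bind the X and Y boxes, stayed within 1.5-fold in mature-like cells. In OPC-like cells Irf1 was at 22.2 and 10.5 CPM (2.11-fold), Irf9 at 16.1 and 5.58 CPM (2.88-fold) and Stat2 at 9.95 and 6.51 CPM (1.53-fold). These were the 3 of the 22 that were higher, with 0 lower, beside 4.76% and 5.98% of all genes.

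Of the 16 other interferon-stimulated genes 6 were higher and 4 lower in mature-like cells, while 12 of 15 read in OPC-like and 11 of 13 in committed-like cells were higher and 0 lower. Of all genes, 5.76% were higher and 2.83% lower in mature-like, 4.76% and 5.98% in OPC-like, and 6.67% and 5.61% in committed-like cells. The lower genes in mature-like cells were Ifit1, Ifit3, Isg15 and Rsad2. The contralateral cell of 12051 UMIs held 63 of 66 Ifit1, 92 of 107 Ifit3 and 17 of 33 Isg15 UMIs. A second contralateral cell held another 14 Ifit3 and 14 Isg15 UMIs. Ifi27l2a, among the higher genes, was at 74.4 and 5.75 CPM. In OPC-like cells Bst2, which tethers virus particles, was at 12.8 and 0.620 CPM. The 5 interferon genes listed, Ifng, Ifnb1, Ifna4, Ifnl2 and Ifnl3, gave 0 UMIs in all kept cells of both libraries, as did Cd8a. The T cell gene Cd3e gave 11 and 0 UMIs, the 11 from 2 cells. Pirb, a receptor that binds class I molecules, had 51 and 7 UMIs in mature-like cells (1.87 and 0.473 CPM, log2 ratio 1.98, 0.83 to 3.36). Among MHC class II genes, Cd74, the invariant chain, gave 0 and 4 UMIs in all kept cells, and H2-Ab1 was at 1.499 and 1.285 CPM in mature-like cells.

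**Figure D5:**
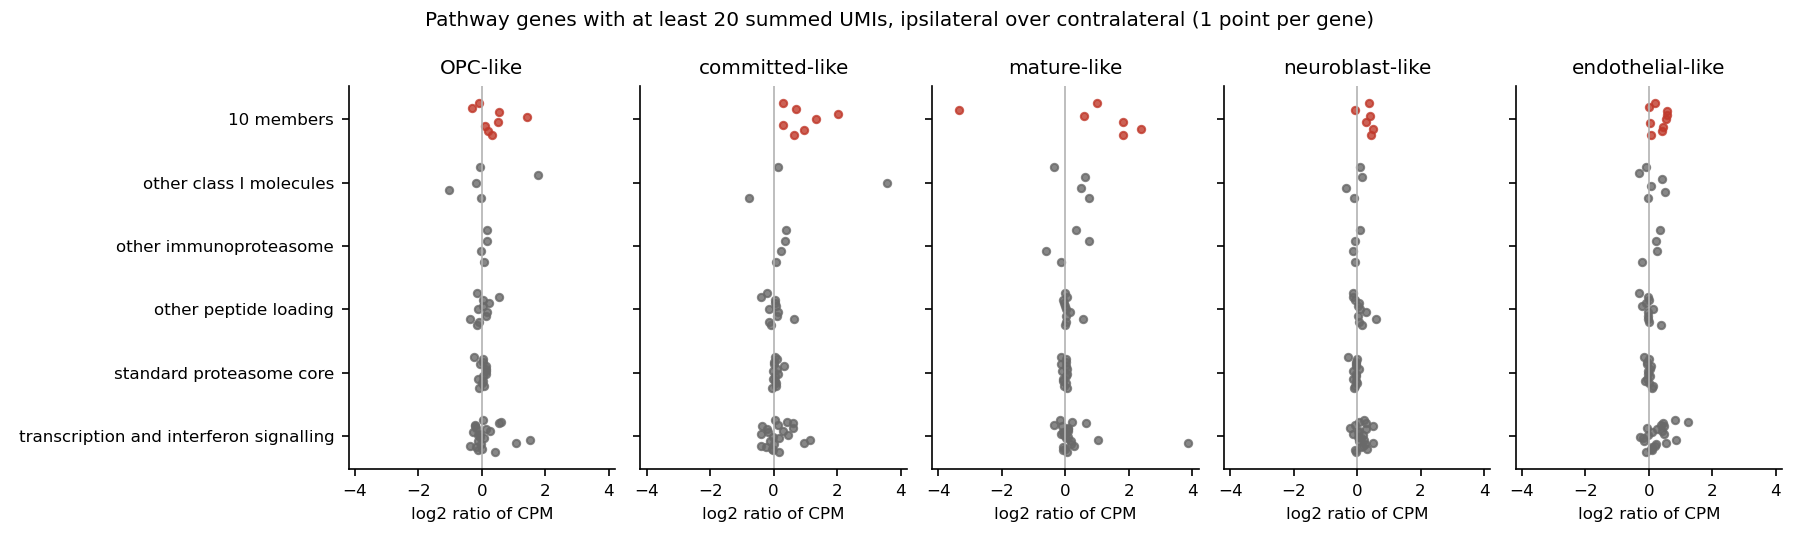
Log2 ratio of CPM, ipsilateral over contralateral, of each gene with at least 20 summed UMIs and a UMI in both libraries (1 point per gene) in 6 gene lists and 5 classes, the 10 members in red. The 14 standard proteasome genes sit close to 0 in all classes, and in mature-like cells Irf1, at 3.87, is the point farthest to the right.

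Over 10 points, 5 classes in 2 libraries, the members resembled each other to different degrees on the scale log2(CPM + 5). B2m and H2-D1 had a Pearson correlation of 0.991 and B2m and H2-K1 of 0.989, while the lowest pair was Tap2 and Nlrc5 at 0.616. Of 11069 other genes with at least 200 UMIs over these points, the 5 most like the mean of the members were Shisa5 (0.993), Nr4a2 (0.990), Klf6 (0.989), Anxa7 (0.988) and Tnfrsf12a (0.986). Shisa5 was at 204 and 170.1 CPM in endothelial-like cells and 10.2 and 7.98 CPM in mature-like cells. The points share 2 libraries, and the endothelial-like points are the highest of the 10 for every member but Nlrc5, whose counts are too low to rank, so these correlations are given as a description.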

How the data were processed

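Droplet single-cell RNA sequencing was done on 1 ipsilateral and 1 contralateral library. The deposited values are raw UMI counts per gene and barcode, made by the authors with Cell Ranger 3.1.0 on mm10, per the submitters' processing notes; the annotation and the handling of reads shared between genes are not stated in the material used. The 10 genes, the gene and marker lists and the tests were chosen with earlier results of these data known.

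Barcodes with at least 500 genes and at most 15% mitochondrial UMIs were kept. Scrublet, run through scanpy 1.11.5, called 26 ipsilateral (1.04%) and 10 contralateral (0.523%) barcodes as doublets; these stayed in, since the rule for cells names no doublet filter, and leaving them out was tried as an alternative. Cells were scaled to 10000 counts, log-transformed and clustered together (2000 variable genes without the members and response genes, 30 components, 15 neighbours, Leiden resolution 1). A cluster took the name of the class with the highest marker score. Clusters stayed unnamed when they scored under 0.3, had under 3 markers at 0.3 of the highest cluster, or had a second class at 0.6 of the best score, unless that class was a neighbouring stage, or had more markers of another class among the 10 leading genes. The naming thresholds were chosen with the data in view. Clusters 2 and 15 stayed unnamed.

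Within each library and class UMIs were added up and divided by the class total, times 1000000 (CPM). Ratios are plain CPM ratios with exact conditional binomial intervals, CPM carry exact Poisson and shares exact Clopper-Pearson 95% intervals, all for counting error only (scipy 1.17.1). The alternatives tried covered cell filters, doublets, clustering, scaling, added CPM, single cells, cluster mix and the count and fold limits. No test was made, because each side is 1 library. The ratio and its interval were checked on simulated sums. Named genes are all members and, per list, up to 4 genes with the largest ratio and at least 50 summed UMIs in a class; Psmb5, Psmb6, Calr, H2-T22 in other classes, the X and Y box factors, Cd74, Ifit1, Isg15, Rsad2 and the interferon genes were added after their values were seen, as were the 7-gene share, the H2-D1 bins and the richest cells. Gene positions come from GENCODE M21 on GRCm38 and matched all 10 identifiers; promoter windows come from RefSeq on GRCm38.p6 and matched 8 genes. Some genes of these lists are not reported here.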

Additional observations from a re-analysis of the deposited data

Results flagged for a closer look

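Tap1 and Psmb8 had log2 ratios of -3.11 and -3.35 in mature-like cells (3 and 14 UMIs for Tap1, 6 and 33 UMIs for Psmb8, ipsilateral first), while both were higher on the ipsilateral side in each of the other 4 classes. In those 4 classes the interval of the Tap1 ratio included 1 in all but the committed-like class. The interval of the Psmb8 ratio included 1 in committed-like and neuroblast-like cells. The difference between classes was not tested. In the contralateral mature-like class 10 of the 14 Tap1 UMIs and 23 of the 33 Psmb8 UMIs came from 1 cell. A second contralateral cell held 8 further Psmb8 UMIs and 1 further Tap1 UMI. The Psmb8 log2 ratio in mature-like cells ran from -4.385 to -0.137 over the processing alternatives.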

How the results depend on the processing

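No paired analysis was possible because each side is 1 library. Among alternative values of the sums, counts and shares of cells 76 stayed close and 18 moved, and among those of single genes 532 stayed close, 31 moved and 1 turned round. That 1 is H2-T23 in mature-like cells, at -0.1566 in cells with no microglia or macrophage UMI. Over its alternatives the log2 ratio of the 10-gene sum stayed positive in all 5 classes: 1.12 to 1.97 in mature-like, 0.55 to 0.97 in committed-like, 0.40 to 0.61 in neuroblast-like, 0.26 to 0.41 in endothelial-like and 0.14 to 0.38 in OPC-like cells. For mature-like cells (1.92) it was 1.741 with equal weight per cell, 1.743 without cells holding a microglia or macrophage UMI, 1.758 with the same mix of clusters, 1.768 without the C4b cluster, 1.762 with cluster 15 added and 1.117 without B2m and H2-D1. For committed-like cells (0.75) it was 0.9386 with Scrublet calls removed before clustering, 0.5526 with at least 1000 genes and at most 10% mitochondrial UMIs, 0.9483 with all variable genes and 0.9713 with cluster 15 added. It was 0.376 in OPC-like cells (0.21) with the same mix of clusters, and 0.4087 in endothelial-like cells (0.28) without cells holding a microglia or macrophage UMI. Members higher in OPC-like cells numbered 1, against 3 with no minimum of UMIs and 0 with at least 100, and in mature-like cells 5, against 3 at 2-fold. Other pathway genes higher numbered 16 in OPC-like cells, against 4 with at least 100 UMIs, and 14 in mature-like cells, against 9 with at least 100 UMIs and 7 at 2-fold. Adding 1 CPM to both values brought Psmb8 in mature-like cells to -1.41. The cause of these shifts was not tested. The alternatives on the C4b cluster, on cluster 15 and on leaving out B2m and H2-D1 were chosen after seeing the data. Under 20 summed UMIs limit the precision of Nlrc5 in all 5 classes, of Psmb9 outside endothelial-like cells and of Tap1 and Tap2 in mature-like cells.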
